A study of Homo sapiens with 12 samples.

Results

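The chromosome 19 miRNA cluster was taken as all rows named miR-498, miR-512, miR-515 to miR-527, miR-1283 or miR-1323, with any letter or arm, and it comprised 67 of the 2656 miRNA names in the count files. Of these 67 names, 30 carried the 5p arm, 31 the 3p arm and 6 no arm. Names absent from the exosome files were counted as 0 there, which concerned miR-519a-3p, miR-520a-5p, miR-520b-3p and miR-520c-3p, none above 5 counts in a cell library. Small RNA had been sequenced from AC16, a human line made by fusing adult ventricular cardiomyocytes with a virus-transformed fibroblast line, and from the exosomes it released. Cells and exosomes were each sequenced as Con and as Ang, which makes 4 groups of 3 libraries. Ang appears as AngII in the file headers and is spelled out nowhere. Its dose and duration were not given in the sources used here. Cell RNA was purified with the miRNeasy Micro kit and exosome RNA with the exoRNeasy Maxi kit, so compartment and kit cannot be told apart. No source says that the numbered replicates were separate cultures, so the p-values reflect no more than the spread among these libraries, which may be technical.

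This cluster is found only in primates. It is imprinted, transcribed from the paternal allele in placenta and in pluripotent cells, and largely silent in other adult tissues, and its products are well known as cargo of trophoblast exosomes. Its hairpins arose by repeated duplication together with neighbouring Alu repeats, so many mature miRNAs differ by few bases. A miRNA recognises its targets chiefly through its seed, the bases 2 to 8 from the 5′ end, and members with the same seed can address the same sites.

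Mature sequences for 64 of the 67 names were taken from RefSeq on GRCh38.p14, and miR-518f-3p, miR-522-3p and miR-527 had no match. The sequences below are those of the members that changed with Ang or led the groups in abundance, and of 1 member of each further seed group of at least 3 names. Capitals mark the seed.
miR-519c-3p: aAAGUGCAucuuuuuagaggau
miR-519d-3p: cAAAGUGCcucccuuuagagug
miR-518a-3p: gAAAGCGCuucccuuugcugga
miR-518b: cAAAGCGCuccccuuuagaggu
miR-526a-3p: gAAAGCGCuuccuuuuagagga
miR-518e-3p: aAAGCGCUucccuucagagug
miR-526b-5p: cUCUUGAGggaagcacuuucugu
miR-1283: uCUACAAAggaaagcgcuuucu
miR-520a-3p: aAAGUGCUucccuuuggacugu
miR-517a-3p: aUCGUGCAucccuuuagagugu
miR-519c-5p: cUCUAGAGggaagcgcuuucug

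The 64 sequences held 34 seeds, of which 20 belonged to 1 name only. The hexamer AAGUGC occurred in 15 members, 14 of them 3p arms and none named 5p, or 23.4% of the members against 1.65% of all 2367 listed names with a sequence. AAGCGC occurred in 17 members, 10 of them 5p arms and 5 of them 3p arms, or 26.6% against 0.8%. All hexamers were searched on the RNA strand only. The 5p arms shared GGAAGC, present in 34.4% of the members, all 22 of them 5p arms, against 1.39% of all names. miR-519d-3p reads AAAGUGC as its seed, as do miR-17-5p, miR-20a-5p, miR-20b-5p, miR-93-5p, miR-106a-5p and miR-106b-5p, the family known for promoting cell cycle entry. The miR-520 3p arms, miR-520a-3p to miR-520e-3p, read AAGUGCU, the seed of miR-302a-3p to miR-302d-3p, miR-302e, miR-372-3p and miR-373-3p, known from pluripotent cells. The seeds AAGUGCA of miR-519a-3p, miR-519b-3p and miR-519c-3p and AAAGCGC of miR-518a-3p, miR-518b, miR-518c-3p, miR-518d-3p and miR-526a-3p were found in no listed name outside the cluster.

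Several names could not be separated by sequence. The mature sequences of 15 members fell into 5 groups of identical sequence, the largest being miR-518e-5p, miR-519a-5p, miR-519b-5p, miR-519c-5p, miR-522-5p and miR-523-5p. These 6 names shared 22 counts in cells and 34 in exosomes, with 7 to 11 counts per name, so no value of a single one of them is interpretable. The leading members had sequences of their own, although near copies exist. Counting from 1 at the 5′ end, miR-519c-3p differs from miR-519b-3p by U11C and A21U, and from miR-519a-3p by U11C, G20U and A21G, the base of miR-519c-3p being written first. miR-518b differs from miR-526a-3p, which has the same seed, by C1G, C10U, C13U and U22A. How many mismatches the authors' mapping allowed was not given in the sources used here, so a split of reads between such near copies is uncertain.

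The hairpins lie on the plus strand of chromosome 19 (GRCh38, GENCODE release 29). The 41 that could be placed span 95.8 kb from 53666679 to 53762430, and 1 of them, MIR519A2, overlaps another annotated gene. The miR-371 to miR-373 hairpins begin 25.2 kb further on. Abundance did not follow position. MIR519C, at 53686469 to 53686555, gave 6895 counts over the 6 cell libraries, whereas its neighbours MIR515-2 and MIR1283-1 stood at 296 and 307. These last 2 counts are of names that MIR515-1 and MIR1283-2 also encode. MIR519D, at 53713347 to 53713434, gave 3310 counts in cells and 2538 in exosomes. Among the hairpins placed it lies between MIR524 with 82 and 49 and MIR521-2 with 15 and 3. The mature miR-517a-3p of MIR517A, a hairpin not placed, lies between MIR524 and MIR519D. The counts of MIR521-2 are of a name that MIR521-1 also encodes. MIR526B, at 53694393 to 53694475, and MIR518B, at 53702737 to 53702819, gave 239 and 438 counts in the deeper exosome libraries and 53 and 213 in cells. Per library total miR-518b was not higher in exosomes Con, with 62.9 CPM beside 81.0 in cells Con.

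**Figure D1:**
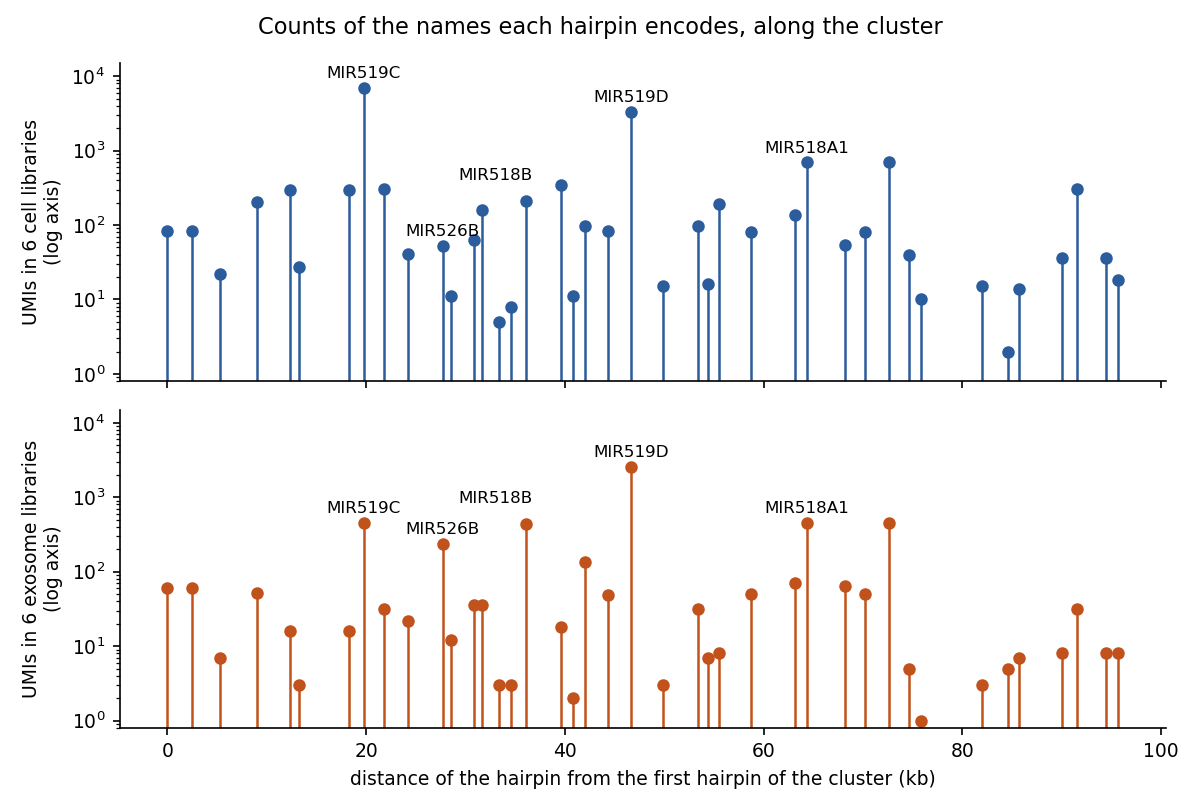
Summed UMI counts (log axis) of the mature names of each placed hairpin in the 6 cell libraries (upper panel) and the 6 exosome libraries (lower panel), against distance in kb from the first hairpin. Names with more than 1 hairpin are drawn at each of them. MIR519C (6895) and MIR519D (3310) stand above all others in cells, and MIR519D (2538) in exosomes.

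The cell libraries totalled 413513 to 528844 UMIs, and the exosome libraries 697049 to 1029883. Over all names, 2 libraries stood apart from the other 2 of their group. For exosomes Con replicate 1 the chi-square per degree of freedom was 6.57 and 10.6 against its group, and 1.91 between the other 2. For cells Ang replicate 2 it was 3.997 and 4.37, against 1.99. The muscle miRNAs were all detected but low in cells, at 344 to 376 counts per 1000000 UMIs (CPM) summed over 7 names in Con and 285 to 326 in Ang. The 6 blood cell markers, none at 0 in any group, summed in cells to 2122 to 2364 CPM in Con and 2028 to 6800.3 in Ang, and in exosomes to 551 to 1270.5 in Con and 346 to 636 in Ang. The 6800.3 belongs to cells Ang replicate 2 and the 551 to exosomes Con replicate 1. In cells Con this sum was mostly miR-223-3p, at 2019, 2076 and 1901 CPM, beside 7.56, 5.81 and 7.07 of miR-451a. The 2 endothelial markers summed to 575 to 674 CPM in cells Con and 517 to 4665 in cells Ang, the 4665 again in replicate 2. In exosomes they summed to 130 to 473 CPM in Con, lowest in replicate 1, and 84.6 to 233 in Ang. The liver marker miR-122-5p reached 181 CPM in cells Ang replicate 2 and ran from 8.74 to 156 CPM in exosomes Con and from 4.30 to 18.8 CPM in exosomes Ang. Both libraries lay with the others of their group for miR-519c-3p and miR-519d-3p, and the tests are also given without them.

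The cluster was a small and very uneven part of the libraries. In cells it held 0.504% ± 0.0137 of the UMIs in Con (SD, n = 3) and 0.466% ± 0.0187 in Ang, and in exosomes 0.102% ± 0.0016 in Con and 0.0790% ± 0.0013 in Ang. Every exosome library lay below every cell library. On TMM-scaled totals the shares were 0.283%, 0.249%, 0.171% and 0.157%, in the same order with a smaller gap. Between 53 and 58 members had a count in each cell library of Con, and between 49 and 60 in each of Ang. In the exosome libraries it was 43 to 50 in Con, which overlaps with cells Ang, and 36 to 38 in Ang. In cells, 28 members never exceeded 3 counts in a library, which is 41.8% of the members against 4.26% of all names. In exosomes it was 42 members, 62.7% against 25.3%. At such counts a change could not have been detected for most of the cluster at this depth.

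The cluster's counts in cells were mainly those of miR-519c-3p, a miRNA described as repressing HIF1A and the drug transporter ABCG2, and of miR-519d-3p. miR-519c-3p stood at 2481, 2676 and 2662 CPM in the 3 libraries of cells Con and at 2153, 2133 and 2205 in those of cells Ang. In exosomes it stood at 43.7, 49.5 and 52.5 CPM in Con and at 132, 118 and 103 in Ang. The Ang libraries are thus low in cells and high in exosomes, with no overlap in either compartment. miR-519d-3p, the member with the miR-17 family seed, had 1106, 1149 and 1134 CPM in cells Con and 1099, 1166 and 1209 in cells Ang, which overlap. It had 590.4, 589.7 and 585 CPM in exosomes Con and 281, 330.02 and 314 in exosomes Ang, where the groups lie far apart.

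The next members were miR-518a-3p, encoded by the 2 hairpins MIR518A1 and MIR518A2, and, in a different order in each compartment, miR-526a-3p, miR-1283, miR-518b and miR-526b-5p. miR-518a-3p had 223, 259.7 and 276 CPM in cells Con and 230.4, 235 and 218 in cells Ang, which overlap. In exosomes it had 93.2, 81.0 and 91.6 CPM in Con and 60.3, 67.9 and 67.5 in Ang, which do not. It came next after the leading pair in both cell groups. miR-526a-3p and miR-1283 followed in cells Con, at 128 ± 14.3 and 86.7 ± 13.2 CPM (SD, n = 3). miR-1283 and miR-518b, at 81.0 ± 8.68, do not differ there beyond their spread. In exosomes Con the order after miR-519d-3p was miR-518a-3p, miR-518b at 62.9 ± 6.47 CPM and miR-519c-3p at 48.6 ± 4.48.

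**Figure D2:**
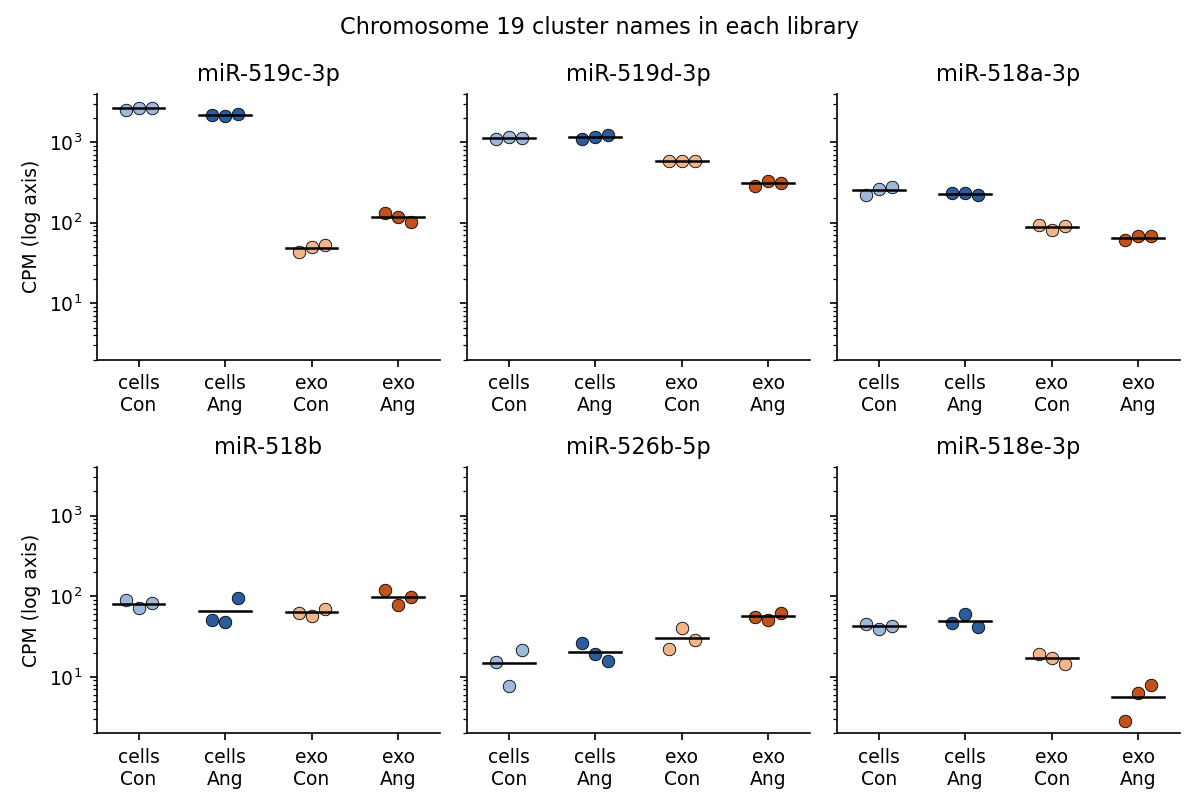
Level in CPM (log axis) of 6 cluster members by group, with a point for each of the 12 libraries and a line for each group mean; exo stands for exosomes. miR-519c-3p is the highest in cells, at 2133 to 2676 CPM, and miR-519d-3p in exosomes, at 281 to 590.4 CPM.

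A ratio taken within a library does not depend on how libraries are scaled to each other. There were 2.24, 2.33 and 2.35 counts of miR-519c-3p per count of miR-519d-3p in cells Con and 1.96, 1.83 and 1.82 in cells Ang. In exosomes the ratio was 0.074, 0.084 and 0.0898 in Con and 0.469, 0.358 and 0.327 in Ang. Each group is separate from the other 3. As a share of the cluster's UMIs, miR-519c-3p made up 51.7% ± 0.86 in cells Con (SD, n = 3) and 4.75% ± 0.37 in exosomes Con, and miR-519d-3p 22.4% and 57.6%.

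**Figure D3:**
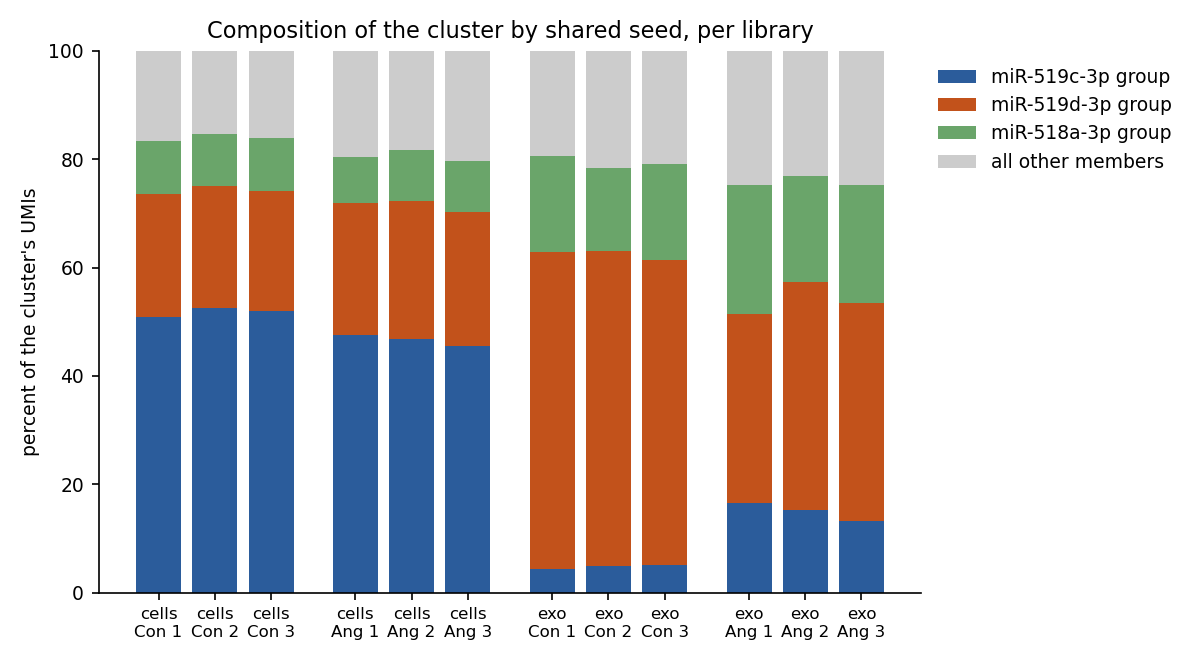
Percent of the cluster's UMIs in each library held by 3 seed groups, stacked to 100: miR-519c-3p with miR-519a-3p and miR-519b-3p, miR-519d-3p with miR-526b-3p, the 5 names that share the miR-518a-3p seed, and all other members. The miR-519c-3p group takes 45.5 to 52.5% in cells, 4.33 to 5.15% in exosomes Con and 13.2 to 16.6% in exosomes Ang.

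Ang against Con in exosomes is the comparison the study's title points to. Of the 67 members, 8 had enough counts to be tested. In the exosomes, miR-519c-3p, miR-526b-5p and miR-518b rose with Ang, and miR-519d-3p and miR-518e-3p fell. These are 5 of 8 members tested, read against the 34.0% of 1199 names called over the whole table, 16.9% higher and 17.1% lower. The median change of the 8 was -0.25 on the log2 scale, beside -0.05 over all names tested. The miRNAs that rose have different seeds from each other and from those that fell. The hairpins of the 3 that rose (MIR519C, MIR526B and MIR518B) lie upstream of those of the 2 that fell (MIR519D and MIR518E). This order was seen after the calls and was not tested. Also upstream of MIR519D are miR-518c-5p and miR-498-5p, which did not pass. Downstream of MIR518E are the hairpins of miR-518a-3p, which did not pass either. A member enters the test only with enough counts in at least 3 of the libraries compared, of whichever group, so the 8 do not stand for all members.

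miR-519c-3p rose 2.70-fold (log2 change 1.43, SE 0.15, adjusted p = 5.136e-05 by edgeR's quasi-likelihood test with Benjamini-Hochberg adjustment). miR-519d-3p fell 1.70-fold (log2 change -0.77, SE 0.084, adjusted p = 8.116e-05 in the same edgeR fit). The 2 leading members of the cells thus moved in opposite directions in the same 6 exosome libraries. Without exosomes Con replicate 1 the changes were 1.39 and -0.73.

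miR-526b-5p stood at 22.3, 40.5 and 28.8 CPM in exosomes Con and at 54.5, 51.2 and 62.6 in exosomes Ang. All 3 Ang libraries lie above all 3 Con libraries. It rose 2.08-fold (log2 change 1.05, SE 0.22, edgeR adjusted p = 0.004355). miR-518b had 61.2, 57.4 and 70.0 CPM in Con and 119, 77.3 and 96.8 in Ang, again with no overlap. It rose 1.73-fold (log2 change 0.79, SE 0.18, edgeR adjusted p = 0.006818). Without exosomes Con replicate 1 both kept their call, at 0.90 and 0.79.

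miR-518e-3p rests on few counts, namely 20, 15 and 14 in exosomes Con and 2, 6 and 8 in exosomes Ang. It reached the minimum count of 10 through Con alone, the group where it is high, so its place among the members tested already favoured a fall. The groups do not overlap, and the fall was 2.51-fold (log2 change -1.33, SE 0.35, edgeR adjusted p = 0.01527). The call was lost without exosomes Ang replicate 1 (adjusted p = 0.05515) or replicate 2 (adjusted p = 0.06435), it held without exosomes Con replicate 1 (log2 change -1.17, adjusted p = 0.04412), and DESeq2 gave no adjusted p. miR-518a-3p, at -0.28 (edgeR adjusted p = 0.1446), miR-518c-5p, at -0.23, and miR-498-5p, at -0.36, did not pass. On library totals alone, which lower the median of all names from -0.05 to -0.22, miR-518a-3p passed at -0.44 (adjusted p = 0.02227). That scaling turned the whole-table calls from 203 higher and 205 lower into 151 and 319. The 5 members called kept their directions under it.

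**Figure D4:**
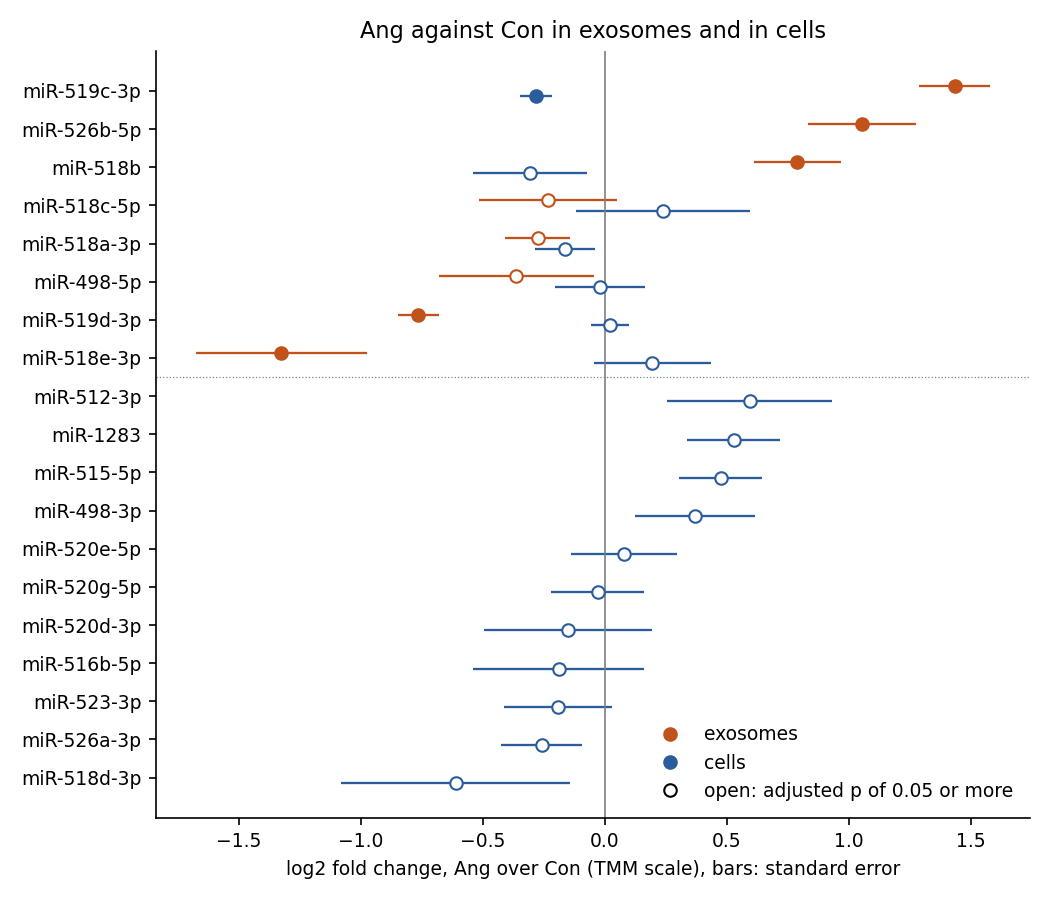
Log2 change of Ang against Con for the cluster members tested, in exosomes and in cells, from edgeR with TMM scaling, with bars of 1 SE and filled symbols for an adjusted p under 0.05; names below the dotted line were tested in cells alone. miR-519c-3p stands at 1.43 in exosomes and -0.28 in cells, and miR-519d-3p at -0.77 and 0.02.

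The other 59 members were not tested in exosomes. Together they summed to 140 ± 9.11 CPM in exosomes Con (SD, n = 3) and 105 ± 8.76 in exosomes Ang. In the same comparison 3 of 5 blood cell markers tested and the liver marker miR-122-5p were lower in Ang, beside 17.1% of 1199 names. Their log2 changes ran from -0.45 to -2.81 among those that passed. Neither endothelial marker passed, with -1.19 for miR-126-3p and -0.58 for miR-126-5p, nor did the muscle marker miR-208a-3p (-0.08). In exosomes Con the blood cell marker sum was lowest in replicate 1, and miR-519d-3p was as high there as in the other 2 libraries. That is 1 library, and the part of these markers in the changes of the cluster was not tested. In bulk libraries a change in every cell and a change in some cells cannot be told apart.

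In cells, 18 members could be tested for Ang, and 1 passed. This is near the background of 6.56% of 1630 names over the whole table, 2.76% higher and 3.80% lower, and the other 49 members were not tested. miR-519c-3p fell 1.22-fold (log2 change -0.28, SE 0.065, edgeR adjusted p = 0.01441), in the direction opposite to that in exosomes. This call was lost without cells Con replicate 2 (adjusted p = 0.1068), cells Con replicate 3 (0.07716) or cells Ang replicate 1 (0.0543), whereas the change itself stayed between -0.27 and -0.28 there, and it held without cells Ang replicate 2 (-0.28, adjusted p = 0.0404). The median over the 18 was -0.02, and over all names 0.02.

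miR-1283 had 96.4, 71.7 and 92.0 CPM in cells Con and 147, 89.5 and 138 in cells Ang. Replicates 1 and 3 of Ang lie above all of Con, and replicate 2 lies within it. Its change of 0.53 (SE 0.19) did not pass (edgeR adjusted p = 0.1218), but without cells Ang replicate 2 it was 0.70 with an adjusted p of 0.01991. miR-515-5p, known to target SPHK1, had 75.6, 69.8 and 87.3 CPM in Con and 118, 87.1 and 117 in Ang, also overlapping (log2 change 0.47, edgeR adjusted p = 0.1218). Of the members that changed in exosomes, miR-519d-3p stood at 0.02 in cells (SE 0.076), miR-518b at -0.31 (SE 0.23) and miR-518e-3p at 0.19 (SE 0.24). None of these 3 passed. miR-526b-5p was not tested in cells, where it had between 4 and 13 counts.

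The difference between both Ang changes was tested as an interaction over all 12 libraries. Of 19 members tested 4 passed, 2 higher and 2 lower, against 15.1% of 1835 names, 9.97% higher and 5.18% lower. The change of miR-519c-3p in exosomes exceeded that in cells by 1.85 on the log2 scale (SE 0.14, edgeR adjusted p = 1.558e-07) and that of miR-518b by 1.24 (SE 0.31, adjusted p = 0.01102). For miR-519d-3p the difference was -0.64 (SE 0.11, edgeR adjusted p = 0.0004611) and for miR-518e-3p -1.38 (SE 0.42, adjusted p = 0.03195). miR-526b-5p did not pass, at 0.71 (SE 0.49, adjusted p = 0.4135), so its rise is not shown to differ between compartments.

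The calls of miR-519c-3p and miR-519d-3p held under all alternatives run for the interaction. That of miR-518b was lost on library totals alone (0.91, adjusted p = 0.06127), and that of miR-518e-3p with DESeq2 and without cells Con replicate 2 or 3, cells Ang replicate 1 or 2, exosomes Con replicate 1 or 2, or exosomes Ang replicate 1 or 2.

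Exosomes were also compared with cells within each condition. In Con, 14 of 19 members tested differed, 5 higher and 9 lower in exosomes, beside 83.3% of 1710 names, 39.2% higher and 44.2% lower. In Ang, 12 of 17 differed, 3 higher and 9 lower, beside 83.3% of 1627 names, 38.2% higher and 45.1% lower. The cluster's share of calls is thus near the background in both. Directions depend on the scaling, because library totals alone moved the median of all names from -0.27 to -1.79 in Con and from -0.31 to -2.21 in Ang. On library totals 1 member was higher and 15 lower in Con, beside 20.2% and 67.6% of all names tested. In Ang 2 were higher and 14 lower, beside 18.1% and 72.3%.

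miR-519c-3p was lower in exosomes under both scalings, 18.8-fold in Con (log2 difference -4.23, SE 0.10, edgeR adjusted p = 3.169e-11) and 4.996-fold in Ang (-2.32, SE 0.11, adjusted p = 2.648e-12). miR-526a-3p had 130.5, 141 and 113 CPM in cells Con and 5.83, 3.38 and 3.09 in exosomes Con, a difference of -3.41 (edgeR adjusted p = 6.121e-07). miR-1283 was lower by both scalings too (-2.18 in Con and -2.79 in Ang). Further members passed as lower with no more than 3 counts in any exosome library, and no fold change is given for them. In Con these were miR-515-5p with 40, 36 and 37 counts in cells and 3, 2 and 3 in exosomes, miR-520g-5p with 31, 31 and 31 against 2, 1 and 1, and miR-520d-3p with 14, 16 and 11 against 0, 3 and 1. In Ang they were miR-515-5p with 58, 36 and 60 against 1, 1 and 2, miR-520g-5p with 29, 25 and 35 against 0, 0 and 2, and miR-526a-3p with 42, 49 and 63 against 1, 1 and 3. All of these, and miR-526a-3p and miR-1283 in both conditions, entered the test through their counts in cells. A lower value in exosomes was thus already favoured for them.

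Smaller differences in both conditions were those of miR-523-3p (-1.48 in Con and -1.55 in Ang), miR-520e-5p (-1.43 and -1.05) and miR-498-3p (-0.86 and -1.47). The call of miR-498-3p in Con was lost with DESeq2 (adjusted p = 0.08239) and without cells Con replicate 2 (edgeR adjusted p = 0.06724), and that of miR-520e-5p in Ang without cells Ang replicate 3 (adjusted p = 0.05296). miR-518e-3p passed in Ang alone (-1.13), a call lost with DESeq2 (adjusted p = 0.05393) and without exosomes Ang replicate 1 (edgeR adjusted p = 0.06276). miR-523-3p, miR-520e-5p, miR-498-3p and, in Ang, miR-518e-3p also entered the test through cells, where they are high. Their place among the members tested thus already favoured a lower value in exosomes.

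miR-526b-5p was higher in exosomes under both scalings. In both conditions it entered the test through its counts in exosomes, where it is high, so a higher value was already favoured. It had 15.1, 7.75 and 21.2 CPM in cells Con and 26.5, 19.3 and 15.6 in cells Ang. In each condition every cell library lies below every exosome library. The difference was 2.57 in Con (SE 0.36, edgeR adjusted p = 5.858e-05) and 3.33 in Ang (SE 0.23, adjusted p = 4.796e-10), and on library totals 1.06 and 1.44. miR-518b had 88.9, 71.7 and 82.5 CPM in cells Con and 50.97, 48.4 and 95.5 in cells Ang. Its exosome excess was 1.15 in Con and 2.44 in Ang with TMM scaling, but -0.37 and 0.53 on library totals. miR-518c-5p stood at 1.73 in Con, where it too entered the test through exosomes, and at 1.44 in Ang. On library totals it stood at 0.22 and -0.44, neither past the threshold. miR-518d-3p, at 1.11 in Con, and miR-519d-3p, at 0.57 in Con and -0.02 in Ang, were higher in exosomes Con with TMM scaling and stood at -0.40 and -0.95 in Con on library totals. The call of miR-518d-3p was also lost with DESeq2 (1.05, adjusted p = 0.06664) and without exosomes Con replicate 3 (0.89, edgeR adjusted p = 0.06216).

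**Figure D5:**
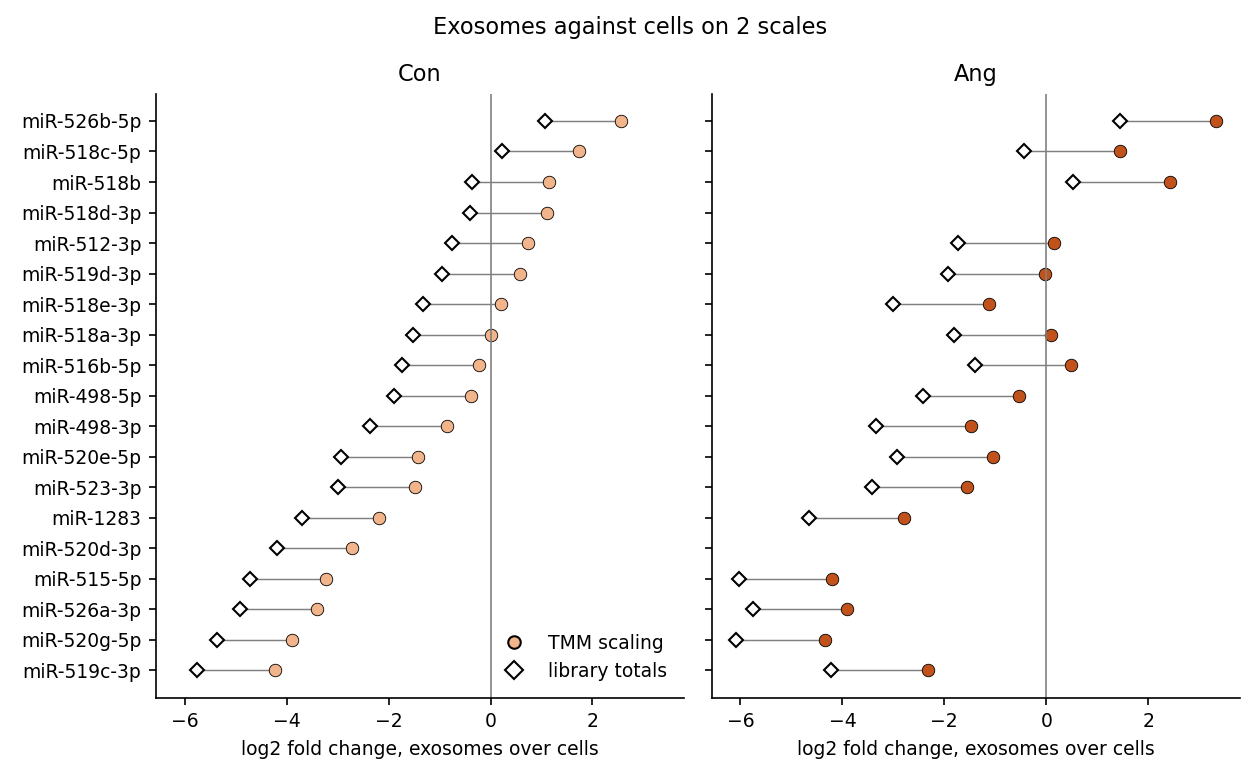
Log2 difference of exosomes against cells from edgeR for the cluster members tested, in Con (left) and in Ang (right), with circles for TMM scaling and diamonds for library totals alone. miR-519c-3p stands at -4.23 and -2.32 with TMM scaling, miR-526b-5p lies to the right of 0 on both scales, and the values of miR-515-5p and miR-520g-5p, of miR-520d-3p in Con and of miR-526a-3p in Ang rest on at most 3 counts per exosome library.

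Members with the same seed did not share a distribution. miR-518b and miR-526a-3p, both with the seed AAAGCGC, had 0.681, 0.507 and 0.729 counts of miR-518b per count of miR-526a-3p in cells Con. In exosomes Con miR-518b had 63, 51 and 68 counts where miR-526a-3p had 6, 3 and 3, and in exosomes Ang 83, 74 and 99 where miR-526a-3p had 1, 1 and 3. The summed level of the 5 names with this seed in cells was 493 ± 14.3 CPM in Con (SD, n = 3) and 423 ± 33.7 in Ang, and in exosomes 173 ± 15.4 in Con and 171 ± 18.7 in Ang. The sum did not separate the 2 exosome groups although miR-518b within it did. The miR-519c-3p group, at 2611 ± 108 CPM in cells Con and 48.9 ± 4.95 in exosomes Con, was almost wholly miR-519c-3p. The miR-520a-3p group summed to 45.1 ± 4.72 CPM in cells Con and 5.92 ± 4.85 in exosomes Con, the miR-517a-3p group to 14.1 ± 2.04 and 2.10 ± 1.07, and the miR-519c-5p group to 13.3 ± 4.89 and 9.79 ± 2.26.

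Each hairpin can release a 5p and a 3p arm, of which usually 1 is retained. Both arms were listed for 28 hairpin names. miR-519d was nearly pure 3p, with 3 counts of the 5p arm beside 1659 of the 3p arm over the libraries of cells Con. The 5p arm of miR-519c cannot be read by itself, but all 6 names with its sequence summed to 22 counts in cells, beside 6891 of miR-519c-3p. miR-526b was nearly pure 5p, with 87 against 1 in exosomes Con and 151 against 0 in exosomes Ang, and with 21 against 2 in cells Con. miR-520e, miR-520g and miR-515 were also mostly 5p in cells Con, at 94.0% ± 5.48, 95.0% ± 3.29 and 89.7% ± 3.55 (SD, n = 3). miR-498 was mixed, at 63.8% ± 4.28. miR-526b-5p, higher in exosomes under both scalings in both conditions, is thus the retained arm of its hairpin.

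Among the members tested, base composition was set beside the compartment difference. The GC share of the mature sequence and the log2 difference of exosomes against cells had a Pearson correlation of 0.70 and a Spearman correlation of 0.64 across the 19 members tested in Con, and of 0.54 and 0.47 across the 17 in Ang. All tested names with a sequence gave 0.56 and 0.58 (n = 1536) in Con and 0.56 and 0.58 (n = 1461) in Ang. These values describe names that share libraries and, within the cluster, sequence. They include members with no more than 3 counts in any exosome library, for which no fold change was given above. They also include members that entered the test through the compartment where they are high. How far these members make up the correlation was not tested. The tetramers GGAG and CCCU, described as exosome sorting motifs in other cells, occurred in 9.38% and 25.0% of the members against 15.7% and 11.9% of all names.

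Related miRNAs outside the cluster were set beside it. miR-93-5p, which shares its seed with miR-519d-3p, had a log2 change of 0.00 with Ang in exosomes (SE 0.26, edgeR adjusted p = 0.9964), beside -0.77 for miR-519d-3p. There were 0.248, 0.333 and 0.293 counts of miR-519d-3p per count of miR-93-5p in cells Con and 2.46, 1.38 and 1.01 in exosomes Con. In exosomes Ang it was 0.721, 0.758 and 1.12, which overlaps with Con. Of 13 listed miRNAs outside the cluster with a miR-17, miR-302 or miR-372 type seed, 2 were tested for Ang in exosomes and 6 in cells. None passed by edgeR, beside 34.0% of 1199 names in exosomes and 6.56% of 1630 in cells. With so few tested, this does not set them apart from the whole table. From the neighbouring miR-371 to miR-373 cluster 1 of 8 names was tested in exosomes. This was miR-371a-3p, with 12, 9 and 13 counts in exosomes Con and 11, 17 and 22 in exosomes Ang, higher with Ang after TMM scaling (log2 change 0.82, SE 0.25, edgeR adjusted p = 0.02987).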

How the data were processed

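Small RNA libraries of AC16 cells and exosomes were made with the QIAseq miRNA kit, per the labels' protocols. Per the file headers, the authors deposited, for each mature miRNA name, unnormalized counts of unique molecular identifiers (UMIs). Per the submitters' processing notes, cutadapt and GRCh38 were used, whereas aligner, miRNA annotation and counter were not given in the sources used here. The cluster's members and the lists of related and marker miRNAs were chosen with earlier results of these data known. Each 2-group comparison was fitted on the whole table to its 6 libraries, and the interaction to 12, with edgeR 4.0.16 in R 4.3.3 (filterByExpr with a minimum count of 10, TMM scaling, two-sided quasi-likelihood test, Benjamini-Hochberg adjustment over all tested names, threshold 0.05). CPM used library totals. A floor of 3 counts was 5.67 CPM in cells Con replicate 1 and covers counting error only. Named with values were members past the threshold in any comparison, the 5 highest of each group and members of their seed groups. Arm shares needed 20 counts in every library. miR-498-5p, miR-518c-5p, hairpin neighbours and the within-library ratios were chosen after values were seen. The fits were tested on simulated counts. Alternatives were RLE factors, library totals, DESeq2 1.42.0, no count filter, a mean of 10 CPM, a replicate block, 1 fit of all 12 libraries and each library left out in turn.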

Additional observations from a re-analysis of the deposited data

Results flagged for a closer look

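The Ang over Con change differed between exosomes and cells for 4 of 19 members by the interaction test of edgeR, beside 15.1% of 1835 names. Each value is the log2 change in exosomes minus that in cells. The difference was 1.85 for miR-519c-3p, which rose in 3 of 3 exosome libraries and fell in 3 of 3 cell libraries relative to all of Con. It was 1.24 for miR-518b, -0.64 for miR-519d-3p and -1.38 for miR-518e-3p, none of which passed in cells. The call of miR-518b was lost on library totals alone. That of miR-518e-3p was lost with DESeq2 and when any of several single libraries was left out. Why the compartments differ was not tested.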

How the results depend on the processing

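Over 51 results and 685 alternative values, 632 kept direction and side of the threshold, 23 lost and 4 gained a call, and 26 changed sign. For Ang against Con in cells 2 members passed with the replicate block, the added one being miR-1283 (0.50, edgeR adjusted p = 0.04961), and 0 to 2 with a library left out, where whole-table calls ran from 38 to 97, beside 107. Without a count filter 20 of 66 members differed between exosomes and cells in Ang, beside 60.7% of 2654 names. TMM-scaled shares of the cluster were 0.2829% (Con) and 0.2490% (Ang) in cells and 0.1710% (Con) and 0.1573% (Ang) in exosomes. All sign changes were of log2 values that did not pass or of the compartment comparison. For Ang in cells, miR-519d-3p became -0.0115 (DESeq2), -0.0075 (no filter), -0.0087 (10 CPM) and -0.0343 (12 libraries), and ran from -0.0105 to 0.0618 with a library left out. In exosomes, leaving a library out gave -0.4468 to 0.0224 for miR-518c-5p and -0.7326 to 0.0072 for miR-498-5p. For exosomes against cells in Con, library totals gave -0.95 for miR-519d-3p, -0.37 for miR-518b, -1.32 for miR-518e-3p, -0.40 for miR-518d-3p and -1.51 for miR-518a-3p, and miR-518a-3p was -0.026 (RLE), -0.0403 (DESeq2), -0.0181 (10 CPM) and -0.09 to 0.0967 with a library left out. In Ang, library totals gave -0.44 for miR-518c-5p and -1.81 for miR-518a-3p, DESeq2 -0.0025 for miR-518a-3p, and miR-519d-3p was 0.0209 without a filter and -0.0695 to 0.1099 with a library left out. The causes were not tested. No source says whether same-numbered replicates were paired. Correlations of their deviations from group means ran from -0.0533 to 0.1205 over 1820 names. Those of differently numbered replicates ran from -0.1384 to 0.0887, so these values do not settle it. With the replicate block 398 names passed for Ang in exosomes, beside 408, and 132 in cells. At this depth 8 of 67 members could be tested for Ang in exosomes. Without a count filter 63 were tested and 5 passed, beside 15.8% of 2580 names.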
